A study of Mus musculus with 4 samples.

Results

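The comparison described here is RAW264.7 macrophages given IL6 in normoxia against untreated cells in normoxia. RAW264.7 is an established mouse macrophage cell line, and the 4 arrays analysed here are all of this 1 line. Their conditions were normoxia control (NC), normoxia with IL6 (NC+IL6), hypoxia control (HC) and hypoxia with IL6 (HC+IL6), each kept for 4 days and each measured on 1 Affymetrix expression array. All cells grew in DMEM with serum and antibiotics. IL6 was given at 25 ng/ml, while the sources used here do not state how much oxygen normoxia held. The deposited values are log2 signals for 45101 probe sets, a probe set being a group of short probes for 1 transcript. Members of the comparison are the probe sets with a log2 signal of 7.5 or more on at least 1 of the NC and NC+IL6 arrays, and they numbered 14936 of 45101, or 33.1%. Of these, 13463 reached 7.5 on both arrays, 721 in NC+IL6 only and 752 in NC only. They stand for 8410 of 18194 genes, each represented by its brightest member probe set. The threshold has no gap beneath it, since a probe set of Tmem135 with 7.501 in NC and 7.23 in NC+IL6 was the nearest inside it, and a probe set of Atxn10 with 7.44 in NC and 7.4998 in NC+IL6 the nearest outside. Since each condition was measured once, differences stand without a replicate check or a p-value, and precision is limited by how few arrays there are.

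IL6 is a secreted cytokine that binds its receptor IL6RA, and the complex engages the shared receptor chain GP130, encoded by Il6st. JAK kinases bound to GP130 then phosphorylate the transcription factor STAT3, which enters the nucleus and switches on its targets, among them Socs3, a protein that shuts the receptor off again. In macrophages the cytokine is known both for inflammatory signalling and for raising the response to signals of alternative activation.

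Most genes differed little between the 2 arrays. Calls were made at a difference of 2-fold or more (a log2 ratio of 1.0), after a dimmer signal under 7.5 had been raised to 7.5. Where that was done, the fold is given as at least its size. By this rule 253 genes were higher with IL6, or 3.01% of the member genes, and 75 were lower, or 0.892%, which makes 3.9% in either direction. Among probe sets, 398 were higher (2.66%) and 132 lower (0.884%), or 3.55% in either direction. Of the called genes 77.1% were therefore higher, while the median log2 ratio of all member genes was -0.03 and 87.0% of them lay within 1.5-fold. A difference of 4-fold or more was seen for 45 higher and 6 lower genes, and for 52 higher and 9 lower genes the fold is a lower bound. Calls were 2.65% of genes with a brighter signal of 7.5 to 9 and 4.83% of those with 9 to 11. The first share is held down by the rule, since a gene with a brighter signal under 8.5 cannot be called. It therefore does not show how reliable calls of dim genes are. Other member probe sets of the same gene gave a partial check within the arrays. Of the 140 such probe sets of 91 genes called higher, 136 had the same sign, 73 were called higher as well and 0 were called lower. Of the 58 of 38 genes called lower, 57 had the same sign and 24 were called lower as well. A probe set that was a member through NC+IL6 only cannot have a ratio below 0, nor one through NC only a ratio above 0. The member rule therefore fixed part of this agreement in sign, and it also fixed the sign of such genes in the lists below. The pooled SD of the log2 ratio between probe sets of 1 gene was 0.26 over 3442 genes, a figure for how far probe sets disagree that says nothing of how cultures vary.

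**Figure D1:**
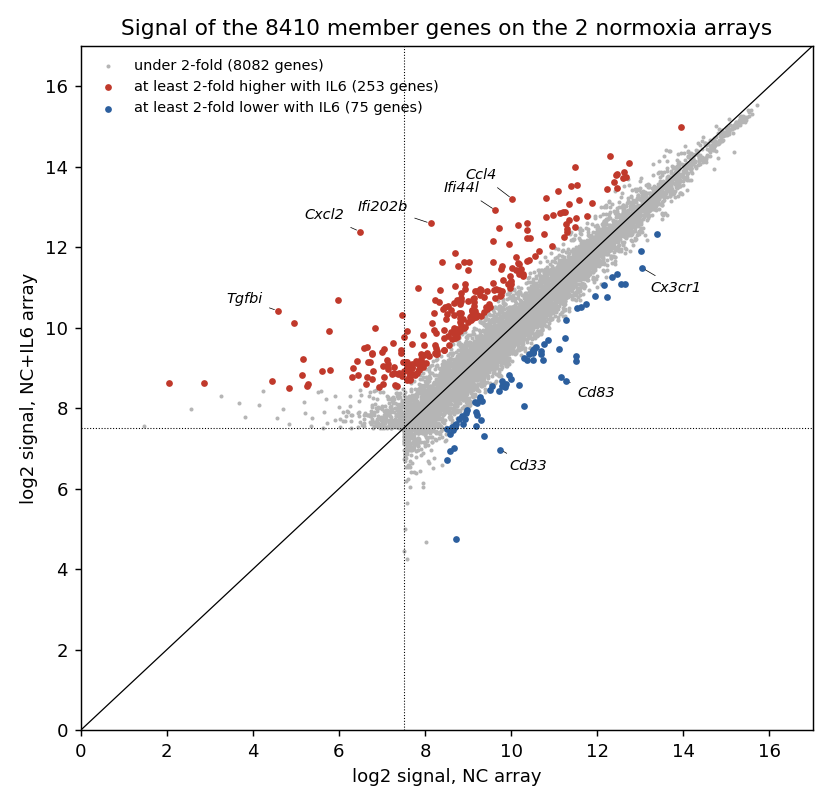
Log2 signal of each of the 8410 member genes on the NC array (horizontal axis) and the NC+IL6 array (vertical axis), 1 point per gene. Dotted lines mark a log2 signal of 7.5 and the diagonal marks equal signal. The 253 red genes were called higher with IL6 and the 75 blue genes lower, and red points left of the vertical dotted line have a fold that is a lower bound.

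The RNA had the markers of macrophages. All 12 macrophage markers were members on these arrays, among them Csf1r, the receptor for the growth factor CSF1, with log2 signals of 15.01 in NC and 14.78 in NC+IL6, and Lyz2, lysozyme, with 15.17 in NC and 14.95 in NC+IL6. Of the 12, Aif1 was a member through NC+IL6 only, with 7.44 in NC and 9.38 in NC+IL6. Summed over the 12, the signal was 186923 in NC and 170839 in NC+IL6. Of the markers of T and NK cells 1 of 8 was a member, Zap70 at 8.06 in NC+IL6, with a sum of 152 in NC and 394 in NC+IL6 over the 8, whose part in the results was not tested. The defining markers of B cells, neutrophils and mast cells, fibroblasts, epithelium and hepatocytes, and endothelium had 0 members, and the brightest of them reached 7.18. Outside the defining markers, Ighm, an immunoglobulin heavy chain, was a member with 11.98 in NC and 11.01 in NC+IL6. The 2 arrays had median log2 signals of 5.64 and 5.55 over the whole table, and Gapdh had a 3'/5' ratio, a measure of RNA integrity, of 0.933 and 0.931. A value from a culture cannot tell more RNA per cell from more cells that make it.

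The receptor itself was not higher. Il6ra, the IL6-binding chain, had log2 signals of 10.68 in NC and 9.87 in NC+IL6, a log2 ratio of -0.81. Il6st, the signalling chain, had a log2 ratio of -0.28. Stat3, the main transcription factor downstream, had 9.18 in NC and 10.27 in NC+IL6 and was 2.12-fold higher. Gab2, an adaptor that links cytokine receptors to growth signalling, was 2.12-fold higher, with 9.49 in NC and 10.58 in NC+IL6. These were the 2 genes called higher among the 17 member genes of the IL6 receptor, JAK and STAT list. None was called lower, and the median log2 ratio of the list was -0.11, beside -0.03 for all member genes. Of the 20 member genes of the STAT3 target list, 8 were called higher and 0 lower, with a median of 0.52. Socs3, the feedback inhibitor of the receptor, had 10.36 in NC and 12.59 in NC+IL6 and was 4.69-fold higher. Pim1, a survival kinase, had 8.04 in NC and 9.36 in NC+IL6 and was 2.51-fold higher. Bcl3, a nuclear partner of NF-kB, had 7.81 in NC and 9.12 in NC+IL6 and was 2.48-fold higher. Saa3, an acute-phase apolipoprotein, was at least 2.83-fold higher, and Il1rn, the antagonist of the IL1 receptor, 2.66-fold higher. Bcl2l1, which encodes the survival protein BCL-XL, had a log2 ratio of 1.11, and Cebpd, a transcription factor of the acute-phase response, 1.17. In hypoxia HC+IL6 minus HC had 4 genes of this list called higher. The log2 ratios there were 2.29 for Socs3, 1.83 for Bcl3, at least 1.503 for Saa3 and 1.02 for Bcl2l1, while Pim1 with 0.87, Il1rn with 0.85, Vegfa with 0.67 and Cebpd with 0.15 were not called. The other member probe set of Il1rn had a log2 ratio of 0.36 in normoxia.

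STAT factors bind palindromes of the form TTCNNNGAA. Sequences from RefSeq (mouse build GRCm38.p6) were searched from 250 bases before to 50 bases after each gene start, on both strands, and the 250 bases before the start are printed here for a few genes, 5' to 3' in the direction of the gene, with the letters of the 1 motif named for each gene in capitals and any other motif unmarked. The genes printed were chosen after their values were seen, because each holds a match, and a match describes letters and not a bound site. Of 32851 such windows 8.30% hold TTCNNNGAA, of the windows of member genes 6.59%, of those of genes called higher 11.5%, and of those called lower 6.02%. Among the called STAT3 targets the letters were found in 1 of 13 windows, that of Socs3 (chr11:117969367-117969616, minus strand), where they begin 154 bases before the start. Pim1, Bcl3, Saa3 and Il1rn held none in this window.
Socs3: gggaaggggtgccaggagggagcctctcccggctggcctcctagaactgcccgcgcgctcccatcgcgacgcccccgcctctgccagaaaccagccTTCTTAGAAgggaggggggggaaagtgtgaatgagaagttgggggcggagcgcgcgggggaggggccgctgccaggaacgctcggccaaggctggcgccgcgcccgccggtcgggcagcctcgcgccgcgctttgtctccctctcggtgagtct

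Interferon-stimulated genes were the group with the most genes called higher. Interferons are antiviral cytokines, and their target genes encode sensors of viral nucleic acid, enzymes that block viral replication and the transcription factors that keep the response going. Of 53 member genes of this list 37 were called higher, or 69.8%, none was called lower, and all 53 had a log2 ratio above 0, with a median of 1.32. Of the 37, 30 had both signals above 7.5. A member through NC+IL6 only cannot lie below 0, so the member rule set part of the count above 0. Outside the list, the interferon-inducible gene Ifi27 was called lower, with a log2 ratio of -1.08 and -0.96 on its other member probe set. Ifi44l, an interferon-induced protein, had log2 signals of 9.64 in NC and 12.92 in NC+IL6 and was 9.71-fold higher, and its other probe set gave a log2 ratio of 3.12. Zbp1, a sensor of unusual nucleic acid that can start cell death, had 5.98 in NC and 10.68 in NC+IL6 and was at least 9.06-fold higher. Trim30a, a regulator of inflammatory signalling, had 8.75 in NC and 11.53 in NC+IL6 and was 6.86-fold higher. In these 3 genes only Zbp1 was under 7.5 in NC. Among the sensors of viral RNA, Ifih1 (MDA5) was 4.17-fold higher, with 9.57 in NC and 11.63 in NC+IL6, and Dhx58 (LGP2) 5.05-fold higher, with 7.59 in NC and 9.92 in NC+IL6. Irf7, the transcription factor that amplifies interferon production, had 8.83 in NC and 10.86 in NC+IL6 and was 4.07-fold higher. Usp18, which removes ISG15 from proteins and dampens the interferon receptor, had 10.81 in NC and 12.76 in NC+IL6 and was 3.84-fold higher. Of the antiviral effectors, Rsad2 (viperin) was at least 3.95-fold higher, Ifit1 at least 3.12-fold higher and Bst2 (tetherin), which holds budding virus at the cell surface, 3.07-fold higher. Oas1a, which makes an activator of RNase L, started bright, with 12.62 in NC and 13.86 in NC+IL6, and was 2.36-fold higher. Cmpk2, which phosphorylates nucleotides in mitochondria, had 6.84 in NC and 9.99 in NC+IL6 and was at least 5.60-fold higher. Probe sets did not always give the same size, since the other member probe sets of Rsad2 had log2 ratios of 0.36 to 0.9996, that of Zbp1 had 0.91 and that of Dhx58 had 0.01.

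The p200 family overlapped with this list, since Ifi204 is on it and is among its genes called higher. Ifi202b, a DNA-binding member of the family, was the second highest gene of the comparison, with 8.13 in NC and 12.59 in NC+IL6, and was 22.03-fold higher. Its probe set is of a kind (suffix s_at) that can match several related transcripts, so the signal of its relatives cannot be set apart. Ifi204, a sensor of DNA, had 4.96 in NC and 10.11 in NC+IL6 and was at least 6.11-fold higher. Ifi207 and Ifi209, of the same family, had log2 ratios of 1.39 and at least 1.32. These 4 genes, all called higher, lie close together in the RefSeq gene order, each within 5 protein-coding genes of the next. Further groups of 3 or more genes called higher by that rule, which lets other genes lie between them, were Slfn5, Slfn2 and Slfn4 of the Schlafen family, Fas with Ifit2, Ifit3 and Ifit1, the chemokine genes Ccl3 and Ccl4 with Wfdc17, Nudt8 with Gstp1 and Cdk2ap2, and Ms4a6c, Ms4a6b and Ms4a6d, membrane proteins of leukocytes. Not every gene in between was higher, since Lipa, between Fas and Ifit2, had a log2 ratio of -1.07 and was called lower, and Slfn8, between Slfn5 and Slfn2, had 0.27 and was not called. Slfn4, linked to myeloid activation, had 11.49 in NC and 13.99 in NC+IL6 and was 5.67-fold higher. Ms4a6d had 11.52 in NC and 13.53 in NC+IL6 and was 4.03-fold higher.

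The letters GAAANNGAA, a core of the interferon response element, were held by 8.56% of all promoter windows, by 7.001% of those of member genes, by 17.8% of those of genes called higher and by 6.02% of those called lower. Among the interferon-stimulated genes called higher, 14 of 36 windows held them, or 38.9%. They are shown in capitals for Ifi44l (chr3:151762892-151763141, minus strand), where they begin 13 bases before the start, for Rsad2 (chr12:26456453-26456702, minus strand), at 119 bases, and for Ifit1 (chr19:34640639-34640888, plus strand), at 109, 103 and 84 bases, the first and the second match overlapping. In these 3 windows they are on the strand opposite to the one printed. Irf7, Xaf1 and Cmpk2 held no such letters in this window.
Ifi44l: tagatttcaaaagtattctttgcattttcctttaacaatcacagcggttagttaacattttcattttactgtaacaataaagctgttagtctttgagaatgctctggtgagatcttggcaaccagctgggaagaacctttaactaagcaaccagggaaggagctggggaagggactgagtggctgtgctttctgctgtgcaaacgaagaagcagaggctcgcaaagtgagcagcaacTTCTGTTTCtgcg
Rsad2: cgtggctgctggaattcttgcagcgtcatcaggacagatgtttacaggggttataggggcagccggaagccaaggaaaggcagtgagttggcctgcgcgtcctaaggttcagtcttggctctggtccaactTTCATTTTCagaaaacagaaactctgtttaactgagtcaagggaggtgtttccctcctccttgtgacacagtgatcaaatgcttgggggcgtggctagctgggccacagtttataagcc
Ifit1: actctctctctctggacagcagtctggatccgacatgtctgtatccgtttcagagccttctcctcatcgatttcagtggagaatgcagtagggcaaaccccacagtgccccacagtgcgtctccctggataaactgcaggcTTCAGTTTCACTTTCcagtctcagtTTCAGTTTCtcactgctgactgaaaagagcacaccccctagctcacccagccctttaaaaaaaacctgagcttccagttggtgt

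Genes of antigen presentation on MHC class I, which shows peptides from inside the cell to CD8 T cells, lay above 0 for 17 of 18 member genes. The median log2 ratio was 0.62, and 4 were called higher. Tap1, which carries peptides into the endoplasmic reticulum, had 8.26 in NC and 9.86 in NC+IL6 and was 3.04-fold higher. Nlrc5, the transactivator of class I genes, had 7.91 in NC and 9.35 in NC+IL6 and was 2.71-fold higher. Psmb9, a subunit of the immunoproteasome, was 2.08-fold higher, and H2-T24, a non-classical class I gene, 3.56-fold higher. The 32 constitutive proteasome subunits had a median of 0.06, with 0 called. Class II genes had 5 members, 0 called and a median of 0.12, and Cd74, the class II invariant chain, had a log2 ratio of -0.63.

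**Figure D2:**
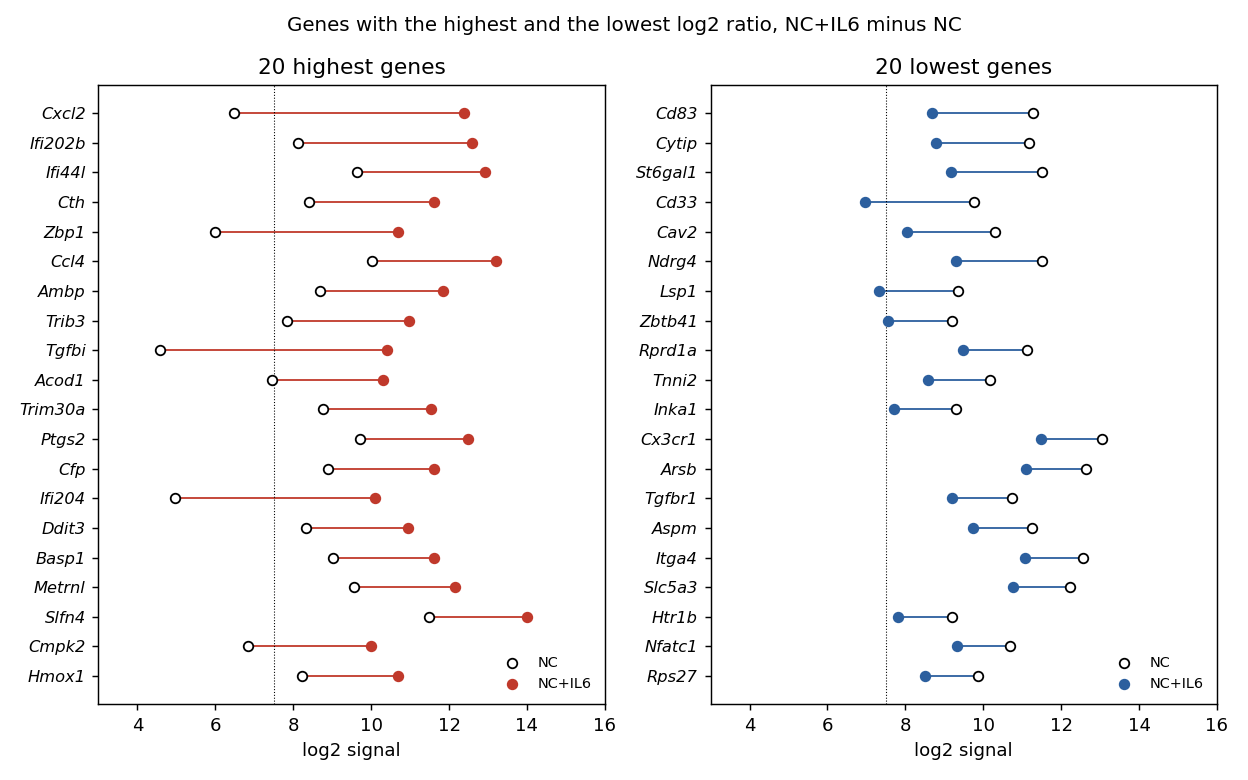
Log2 signal of the 20 genes with the highest and the 20 with the lowest log2 ratio, with open circles for NC, filled circles for NC+IL6 and a dotted line at 7.5. Cxcl2 had the widest gap among the higher genes, from 6.49 to 12.39, and Cd83 among the lower genes whose signals were above 7.5 on both arrays, from 11.28 to 8.68.

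Chemokines, the secreted proteins that draw leukocytes, had 11 member genes of 24 listed. Of the 11, 6 were called higher and 0 lower, with a median of 1.04. That median is the value of Ccl2, itself a lower bound, and it moved when the floor or the threshold was changed. Cxcl2, which attracts neutrophils, was the highest gene of the whole comparison. Its log2 signal was 6.49 in NC and 12.39 in NC+IL6, so that it went from under 7.5 to one of the brighter member genes, and it was at least 29.6-fold higher. Ccl4, which attracts monocytes and T cells, had 10.03 in NC and 13.20 in NC+IL6 and was 9.01-fold higher. Its neighbour Ccl3 was already bright, with 12.43 in NC and 13.80 in NC+IL6, and was 2.57-fold higher. Cxcl10, an interferon-induced attractant of T cells, had 8.70 in NC and 11.04 in NC+IL6 and was 5.06-fold higher. Cxcl11, a ligand of the same receptor, was 2.18-fold higher, and Ccl2, the main attractant of monocytes, at least 2.06-fold higher. Cxcl16 had the lowest log2 ratio of the list, -0.78. The receptors went both ways. Ccr1, a receptor for CCL3, had 5.77 in NC and 9.91 in NC+IL6 and was at least 5.33-fold higher. C3ar1 and C5ar1, the receptors for the complement fragments C3a and C5a, were 4.49-fold higher and 3.77-fold higher, but the other member probe set of C5ar1 had a log2 ratio of 0.69 and was not called. Cx3cr1, the fractalkine receptor, was bright in NC and was lower with IL6, with 13.04 in NC and 11.48 in NC+IL6, which is 2.95-fold lower. The median over the 8 receptor genes was 0.98 as deposited and 0.35 after quantile normalization over the 4 arrays, so it is not a stable value.

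The letters GGANTTNCC, of the form bound by NF-kB, were searched after the values were seen. They are in 3.95% of all promoter windows, 4.12% of those of member genes, 7.91% of those of genes called higher and 2.41% of those called lower. Of the 6 chemokine genes called higher 3 have a window in the RefSeq table. Cxcl2 (chr5:90903649-90903898, plus strand) holds the NF-kB letters 96 bases before the start, as printed here in capitals. Cxcl10 (chr5:92348890-92349139, minus strand) holds the interferon response letters 213 bases before the start, which are those in capitals. The NF-kB letters were in 2 of the 3 chemokine windows, and Cxcl10 holds them as well, unmarked.
Cxcl2: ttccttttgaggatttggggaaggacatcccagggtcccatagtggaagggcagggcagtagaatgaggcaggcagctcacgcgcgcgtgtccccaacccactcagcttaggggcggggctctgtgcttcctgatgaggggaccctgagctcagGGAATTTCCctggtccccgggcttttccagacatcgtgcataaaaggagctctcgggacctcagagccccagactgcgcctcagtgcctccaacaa
Cxcl10: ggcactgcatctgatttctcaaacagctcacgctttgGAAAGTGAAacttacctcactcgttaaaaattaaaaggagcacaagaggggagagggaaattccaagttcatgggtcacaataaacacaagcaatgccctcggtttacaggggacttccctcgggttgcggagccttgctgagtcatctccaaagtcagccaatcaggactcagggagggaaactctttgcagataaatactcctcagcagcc

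Genes usually taken as markers of classical (M1) and of alternative (M2) activation of macrophages both had calls in the higher direction. Of 25 M1 genes only 12 were members, 8 of them called higher and 0 lower, with a median of 1.73. Of the members, 12 of 12 had a log2 ratio above 0. Part of that count was set by the member rule, since a member through NC+IL6 only, such as Cxcl2 or Acod1, cannot lie below 0. Of the 8 called higher, 6 had both signals at or above 7.5. Some of them are on the lists above (Cxcl2, Cxcl10, Cxcl11 and Socs3). Ptgs2, the inducible cyclooxygenase that starts prostaglandin synthesis, had 9.72 in NC and 12.49 in NC+IL6 and was 6.82-fold higher. Acod1, the enzyme that makes itaconate from a TCA cycle intermediate, had 7.46 in NC and 10.30 in NC+IL6 and was at least 6.98-fold higher. Tnf, the inflammatory cytokine, had 8.48 in NC and 10.21 in NC+IL6 and was 3.31-fold higher. Fcgr1, the high-affinity receptor for IgG, had 11.35 in NC and 13.08 in NC+IL6 and was 3.31-fold higher. Of 30 M2 genes only 8 were members, 3 of them called higher and 0 lower, with a median of 0.55. Clec10a, a galactose-binding lectin, had 8.84 in NC and 10.66 in NC+IL6 and was 3.53-fold higher. Msr1, a scavenger receptor for modified lipoproteins, had 11.13 in NC and 12.86 in NC+IL6 and was 3.31-fold higher, with its other member probe sets between 0.59 and 1.79. Vegfa, the growth factor of blood vessels, was at least 2.86-fold higher, with a log2 ratio of 0.12 on its other member probe set. Clec7a, the receptor for fungal glucan, had 9.64 in NC and 8.86 in NC+IL6, a log2 ratio of -0.78. Arg1, Chil3 and Mrc1, which often stand for the M2 state, did not reach 7.5 on either array. Neither did Il12a, Il12b, Il6, Ifna1, Il1a and Cd86, which the study takes as genes of the M1 state. The M2 median was 1.32 without the floor at 7.5.

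Of the genes that the study names for its arrays or uses as markers, 8 were members. Cxcl10, Bnip3 and Stat3 were called higher. Adgre1, which encodes the macrophage antigen F4/80, had 11.05 in NC and 11.09 in NC+IL6, and Actb had 15.30 in NC and 15.16 in NC+IL6. The kinase genes Mapk8, Mapk9 and Mapk14 had log2 ratios of -0.05, 0.14 and -0.29. Under 7.5 on both arrays were Il12a, Il12b, Il6, Ifna1, Il1a, Fcer2a, Scara5, Il10, Ccr2, Cxcr2, Arg1, Chil3, Cd209a, Mrc1 and Cd86. The study measured CD209, CD206 (Mrc1) and CD86 as surface protein by flow cytometry, and Arg1 and Ym1 (Chil3) by RT-PCR. For IL6 in normoxia it reports induced CD209 and CD206 and high CD86. A dim array signal for RNA does not bear on those protein results. Il10, a cytokine that restrains inflammation, had 5.205 in NC and 7.19 in NC+IL6, and Ccr2, the receptor for CCL2, had 6.58 and 7.498. The study names some of these genes from the same arrays, so their counts are not independent evidence of a direction.

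**Figure D3:**
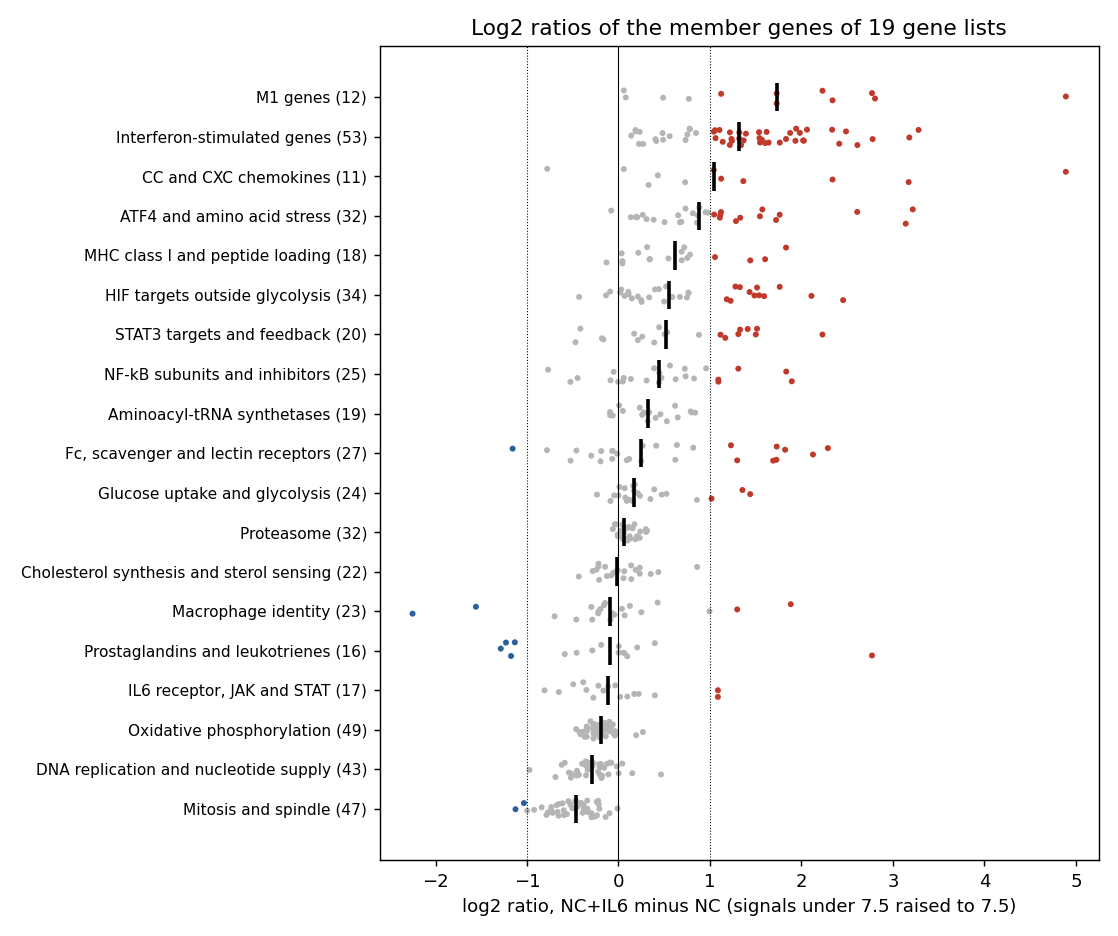
Log2 ratio of each member gene, NC+IL6 minus NC, in 19 gene lists with the number of member genes in parentheses, 1 point per gene. Black bars are list medians, red and blue points are genes called higher and lower, and dotted lines mark 2-fold. The medians ran from 1.73 for the M1 genes and 1.32 for interferon-stimulated genes to -0.47 for mitosis and spindle genes.

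Genes of amino acid stress were another group with many called higher. Lack of amino acids, or unfolded protein, leads to phosphorylation of the initiation factor eIF2, and the transcription factor ATF4 then raises genes that take up and make amino acids. Of 32 member genes 13 were called higher and 0 lower, with a median of 0.88, and 31 of 32 lay above 0. Atf4 itself had 12.62 in NC and 13.51 in NC+IL6, a log2 ratio of 0.88. Cth, which makes cysteine from cystathionine, had 8.41 in NC and 11.62 in NC+IL6 and was 9.30-fold higher. Trib3, a pseudokinase that holds back ATF4, had 7.84 in NC and 10.98 in NC+IL6 and was 8.81-fold higher, and its other probe set had a log2 ratio of 2.54. Ddit3, which encodes CHOP, a factor that can lead to cell death, had 8.34 in NC and 10.95 in NC+IL6 and was 6.10-fold higher. These 3 genes were among the 20 highest of the comparison. Chac1, which degrades glutathione, had 8.79 in NC and 10.37 in NC+IL6 and was 2.97-fold higher. Slc7a11, the cystine importer, had 7.69 in NC and 9.02 in NC+IL6 and was 2.52-fold higher, and Slc1a4, a transporter of neutral amino acids, was at least 2.92-fold higher on its brightest probe set and had log2 ratios of 0.04 to 0.45 on the others. Asns, asparagine synthetase, had 12.72 in NC and 13.70 in NC+IL6, just short of a call. The aminoacyl-tRNA synthetases, which load amino acids onto tRNA, were above 0 for 16 of 19 genes with 0 called and a median of 0.32. Chaperones of the endoplasmic reticulum had a median of 0.24 over 31 genes with 0 called, and heat shock chaperones -0.05 over 21 with 0 called.

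The letters TGATGNAA, of the form bound by ATF4 together with C/EBP factors such as CHOP, were also searched after the values were seen. They are in 3.97% of all promoter windows, 2.08% of those of member genes, 6.72% of those of genes called higher, 2.41% of those called lower and 5 of 11 windows of the called genes of this list. In Slc7a11 (chr3:50443614-50443863, minus strand) they begin 66 and 47 bases before the start, once on each strand, and in Chac1 (chr2:119350992-119351241, plus strand) 193 bases before it. Ddit3 held none in this window.
Slc7a11: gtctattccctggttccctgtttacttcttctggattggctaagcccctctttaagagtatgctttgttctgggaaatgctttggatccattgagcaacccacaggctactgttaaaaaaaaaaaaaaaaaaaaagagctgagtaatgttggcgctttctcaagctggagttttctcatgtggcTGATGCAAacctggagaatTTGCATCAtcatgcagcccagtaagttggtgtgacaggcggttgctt
Chac1: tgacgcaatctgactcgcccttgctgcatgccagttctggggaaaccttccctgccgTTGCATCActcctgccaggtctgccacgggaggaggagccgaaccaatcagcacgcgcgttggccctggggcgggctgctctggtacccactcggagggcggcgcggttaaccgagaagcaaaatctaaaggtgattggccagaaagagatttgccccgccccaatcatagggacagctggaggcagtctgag

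Target genes of the hypoxia-inducible factors (HIF), which are usually held down by oxygen, were higher in part although both arrays were from normoxia. Of 34 member genes outside glycolysis 12 were called higher and 0 lower, and the median was 0.55. Hmox1, heme oxygenase, which the oxidant sensor NRF2 also drives, had 8.22 in NC and 10.68 in NC+IL6 and was 5.48-fold higher. Ndrg1, a stress-responsive gene, had 11.40 in NC and 13.51 in NC+IL6 and was 4.31-fold higher, with its 4 other member probe sets between 1.30 and 2.25. Ero1a, an oxidase for disulphide bonds, had 11.58 in NC and 13.17 in NC+IL6 and was 3.01-fold higher. Ddit4, an inhibitor of mTORC1 that is also on the amino acid stress list, had 9.15 in NC and 10.91 in NC+IL6 and was 3.39-fold higher. Bnip3, a mitophagy receptor, was bright in NC, with 12.40 in NC and 13.62 in NC+IL6, and was 2.34-fold higher. Adm, the vasodilator adrenomedullin, was at least 2.70-fold higher, with a log2 ratio of 0.86 on its other member probe set. Set beside these, HC minus NC, which shares the NC array, gave log2 ratios of 1.14 for Hmox1, 1.57 for Ndrg1, 1.27 for Ero1a, 1.64 for Ddit4 and 1.60 for Bnip3. Over the same 34 genes HC minus NC had 16 called higher and a median of 0.87, where 2.77% of member genes were called higher and 1.13% lower. The HIF core letters ACGTG are common, in 19.6% of all promoter windows, 27.2% of those of member genes, 19.4% of those of genes called higher and 20.5% of those called lower, and they were in 7 of 14 windows of the called HIF targets. In Bnip3 (chr7:138909507-138909756, minus strand) they begin 108 bases before the start and are read on both strands, the 2 matches overlapping.
Bnip3: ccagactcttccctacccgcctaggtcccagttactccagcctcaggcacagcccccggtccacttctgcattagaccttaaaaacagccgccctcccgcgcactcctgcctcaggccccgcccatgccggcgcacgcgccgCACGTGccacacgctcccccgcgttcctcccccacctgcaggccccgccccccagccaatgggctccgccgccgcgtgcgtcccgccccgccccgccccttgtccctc

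Energy metabolism differed at a few steps. Of 24 genes of glucose uptake and glycolysis 3 were called higher and 0 lower, with a median of 0.16. Slc2a1, the glucose transporter GLUT1, had 12.47 in NC and 13.82 in NC+IL6 and was 2.56-fold higher. Pfkfb3, a regulator that speeds glycolysis at phosphofructokinase, had 7.58 in NC and 9.02 in NC+IL6 and was 2.71-fold higher, and Hk3, a hexokinase of myeloid cells, 2.02-fold higher. Gys1, glycogen synthase, had a log2 ratio of 1.18. Subunits of oxidative phosphorylation lay below 0 for 47 of 49 genes, none called, with a median of -0.20. The TCA cycle list had a median of -0.13 over 26 genes, with Acod1 as its 1 call. Cholesterol synthesis had 0 of 22 genes called and a median of -0.01, and fatty acid synthesis 0 of 22 and -0.03. Plin2, the coat protein of lipid droplets, was 2.03-fold higher, whereas Lipa, the lysosomal lipase that frees cholesterol, was 2.10-fold lower. Mt2, a metal-binding metallothionein, had 12.29 in NC and 14.26 in NC+IL6 and was 3.92-fold higher, and Gstp1, a glutathione transferase, had a log2 ratio of 1.25. The NRF2 target list, which holds these and Hmox1 and Slc7a11, had 4 of 27 called higher and a median of -0.06.

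**Figure D4:**
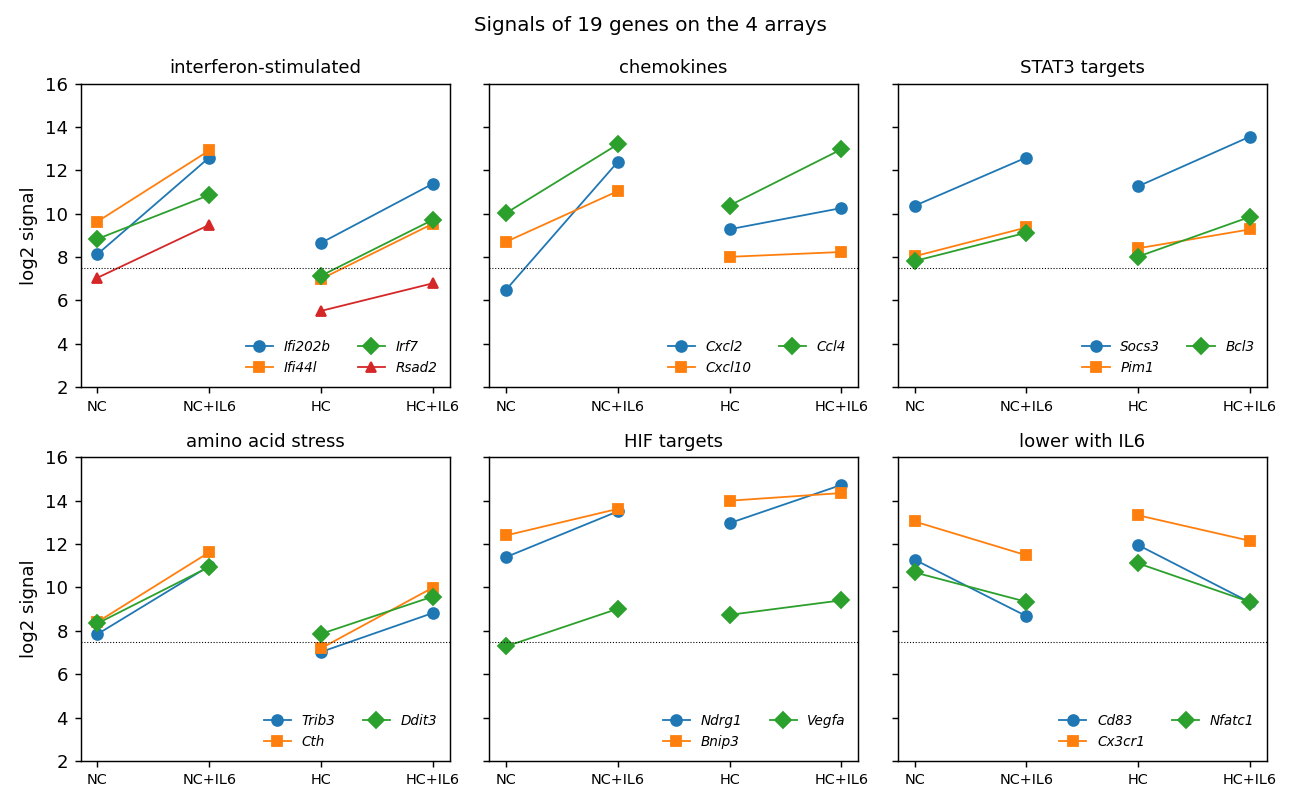
Log2 signals of 19 genes on the 4 arrays, with lines joining the arrays with and without IL6 in normoxia and in hypoxia and a dotted line at 7.5. Each point is 1 array and has no error. Socs3, Ccl4 and Cd83 had a similar step in both pairs, while Cxcl2 and Cxcl10 had a larger step in normoxia.

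Inflammatory regulators were higher together with their inhibitors. Of 25 genes of the NF-kB list 5 were called higher, 0 lower, with a median of 0.45. Ikbke, a kinase that activates interferon genes, was at least 3.72-fold higher. Nfkbiz, a nuclear co-regulator of NF-kB, had 8.51 in NC and 10.34 in NC+IL6 and was 3.56-fold higher, while its other member probe sets had log2 ratios of 0.47 to 0.71. Nfkbie, an inhibitor of NF-kB, was 2.13-fold higher, and Tank, an adaptor of the same pathway, 2.13-fold higher. Ier3, an early response gene, had 10.82 in NC and 13.22 in NC+IL6 and was 5.28-fold higher. Egr1, a transcription factor that responds to ERK signalling, had 10.37 in NC and 12.42 in NC+IL6 and was 4.15-fold higher. Dusp6, the phosphatase that switches ERK off, had 9.13 in NC and 10.74 in NC+IL6 and was 3.06-fold higher. Among the 20 genes of the MAPK cascade itself 0 were called, with a median of 0.01, and Map2k1, which encodes the ERK kinase MEK1, had the log2 ratio 0.71. Casp4, mouse caspase-11, which senses bacterial lipopolysaccharide in the cytosol, had 8.33 in NC and 10.65 in NC+IL6 and was 4.97-fold higher. Il18, a cytokine released by inflammasomes, was 2.04-fold higher. Zfp36, which makes inflammatory mRNAs unstable, was 3.13-fold higher, and Sgk1, a kinase induced by glucocorticoids and stress, 4.74-fold higher. Nfil3 and Id1, transcription regulators of lymphoid and myeloid cells, were 4.15-fold higher and at least 3.15-fold higher.

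Surface receptors for antibody and microbes were mostly higher where called. Of 27 Fc, scavenger and lectin receptor genes 8 were called higher and 1 lower, with a median of 0.25. Fcgr2b, the inhibitory IgG receptor, had 9.95 in NC and 12.07 in NC+IL6 and was 4.36-fold higher, with its 3 other member probe sets between 2.07 and 2.55. Fcgr3, a low-affinity activating IgG receptor, had 10.36 in NC and 11.66 in NC+IL6 and was 2.46-fold higher. Clec4e (MINCLE), a lectin for mycobacterial glycolipid, had 11.10 in NC and 13.39 in NC+IL6 and was 4.89-fold higher. Lgals9, galectin-9, was at least 3.23-fold higher, while its receptor Havcr2 (TIM-3), which is in no list, was 2.26-fold lower. The 1 gene of the list called lower was Cd300a, an inhibitory receptor, with 11.74 in NC and 10.58 in NC+IL6, which is 2.23-fold lower. Plaur, the urokinase receptor, had 8.92 in NC and 10.97 in NC+IL6 and was 4.13-fold higher. Tgfbi, a matrix protein induced by TGF-beta, had 4.58 in NC and 10.42 in NC+IL6 on a probe set of the kind that matches several transcripts (suffix x_at), and its 3 other member probe sets had log2 ratios of 0.63 to 2.40.

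Many called genes were in none of the 59 lists, namely 130 of 253 higher and 54 of 75 lower. Ambp, the precursor of alpha-1-microglobulin and bikunin, had 8.69 in NC and 11.85 in NC+IL6 and was 8.94-fold higher. Cfp, properdin, which stabilizes the alternative pathway of complement, had 8.90 in NC and 11.63 in NC+IL6 and was 6.63-fold higher. Metrnl, a secreted meteorin-like factor, had 9.57 in NC and 12.16 in NC+IL6 and was 6.0-fold higher. Basp1, a membrane protein of growing nerve cells that is on the list of actin and motility genes, was 6.03-fold higher. Gja1, the gap junction protein connexin 43, had 8.995 in NC and 11.44 in NC+IL6 and was 5.45-fold higher, with its other member probe sets between 0.41 and 2.68. Pros1, protein S, an anticoagulant that helps macrophages take up dying cells, was 4.09-fold higher. Gch1, which starts synthesis of the cofactor of nitric oxide synthase, was 3.21-fold higher, and C1qb, a chain of complement C1q, at least 2.70-fold higher. Calcrl, part of the receptor for adrenomedullin, had 10.37 in NC and 12.22 in NC+IL6 and was 3.60-fold higher, while its other member probe set had a log2 ratio of 0.63 and was not called.

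The lower genes were fewer, and 6 of them were lower by 4-fold or more. Cd83, a protein of mature dendritic cells and activated leukocytes, had 11.28 in NC and 8.68 in NC+IL6 and was 6.09-fold lower. Cytip, which regulates integrin adhesion, had 11.16 in NC and 8.78 in NC+IL6 and was 5.24-fold lower, with its other probe set at -2.40. St6gal1, a sialyltransferase, had 11.50 in NC and 9.17 in NC+IL6 and was 5.06-fold lower, and Cd33, a lectin that binds sialic acid, had 9.75 in NC and 6.97 in NC+IL6 and was at least 4.76-fold lower. Itga4, the integrin alpha 4 chain, had 12.56 in NC and 11.07 in NC+IL6 and was 2.80-fold lower. Lsp1, an actin-binding protein of leukocytes, was at least 3.63-fold lower, and Cav2, caveolin 2, 4.75-fold lower. Ndrg4, a cytoplasmic relative of Ndrg1, had 11.51 in NC and 9.29 in NC+IL6 and was 4.65-fold lower, with its other probe set at -1.93. Tgfbr1, a receptor of TGF-beta, had 10.75 in NC and 9.21 in NC+IL6 and was 2.92-fold lower. For Zbtb41, Rprd1a, Arsb, Aspm and Htr1b, also among the 20 lowest, the other member probe set gave a log2 ratio of -0.32, -0.18, -0.16, -0.37 and -0.12, so their folds rest on 1 probe set. Polr2a, the large subunit of RNA polymerase II, was the 1 gene called lower of 13 housekeeping genes, and was 2.08-fold lower. Rps27 was the 1 called of 38 cytosolic ribosomal protein genes, whose median was -0.18.

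Osteoclast and eicosanoid genes had calls in the lower direction. RAW264.7 cells can become osteoclasts, the cells that resorb bone, and Nfatc1, the master transcription factor of that path, had 10.70 in NC and 9.34 in NC+IL6 and was 2.56-fold lower, with its other member probe sets between -1.03 and -0.22. Dcstamp, needed for the fusion of osteoclast precursors, had 8.88 in NC and 7.61 in NC+IL6 and was 2.41-fold lower. These were the 2 called of 12 member genes, with a list median of -0.01. Among 16 genes of prostaglandins and leukotrienes 4 were called lower, in contrast to the higher Ptgs2. Alox5, which starts leukotriene synthesis, had 9.71 in NC and 8.42 in NC+IL6 and was 2.44-fold lower. Hpgd, which inactivates prostaglandins, was at least 2.35-fold lower, and the microsomal glutathione transferases Mgst2 and Mgst3 were 2.26-fold lower and 2.19-fold lower.

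Genes of cell division were lower by small steps. All 47 member genes of the mitosis and spindle list had a log2 ratio below 0, with a median of -0.47, and 2 of them were called, Cenpf at -1.13 and Ccnf at -1.03. Mki67, the proliferation marker, had 12.83 in NC and 12.04 in NC+IL6, a log2 ratio of -0.79. DNA replication genes lay below 0 for 39 of 43, with 0 called and a median of -0.29. E2f2, a transcription factor of S phase entry, was 2.15-fold lower. Outside the lists, Skp2, which marks a CDK inhibitor for degradation, and Wee1, which holds CDK1 inactive, were each 2.17-fold lower, and Cdca2, a mitotic exit factor, was 2.42-fold lower. The other member probe set had a log2 ratio of -0.38 for Wee1, -0.66 for Cdca2, -0.67 for E2f2 and -0.68 for Ccnf. These shifts stand beside a median of -0.03 for all member genes and were below 2-fold for 45 of the 47 mitosis genes.

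The same treatment in hypoxia, HC+IL6 minus HC, shares no array with the comparison described so far. Over the 8232 genes with a value in both, Pearson's r was 0.68 and Spearman's rho 0.61, across genes, which are not replicates. Of the 243 genes called higher in normoxia with a value in hypoxia, 115 were also called higher there, or 47.3%, where 2.1% of these genes were called higher in hypoxia. Among the member genes of the normoxia comparison 173 were called higher in hypoxia, and 66.5% of these had been called higher in normoxia. Genes under 7.5 on both normoxia arrays are left out of that share, such as Il10, with 4.88 in HC and 9.20 in HC+IL6. The share is therefore not one of all genes called higher in hypoxia. Of the 243, 231 had the same sign and 0 were called lower. Of the 75 called lower, 39 were also called lower in hypoxia, or 52%, where 1.6% were called lower, and 72 had the same sign. Those 39 were 29.5% of the 132 genes called lower in hypoxia among the same member genes. The median log2 ratio of the genes called higher was 1.36 in normoxia and 0.96 in hypoxia, and of those called lower -1.15 and -1.03. Genes were selected in normoxia, so no difference is read from these medians.

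**Figure D5:**
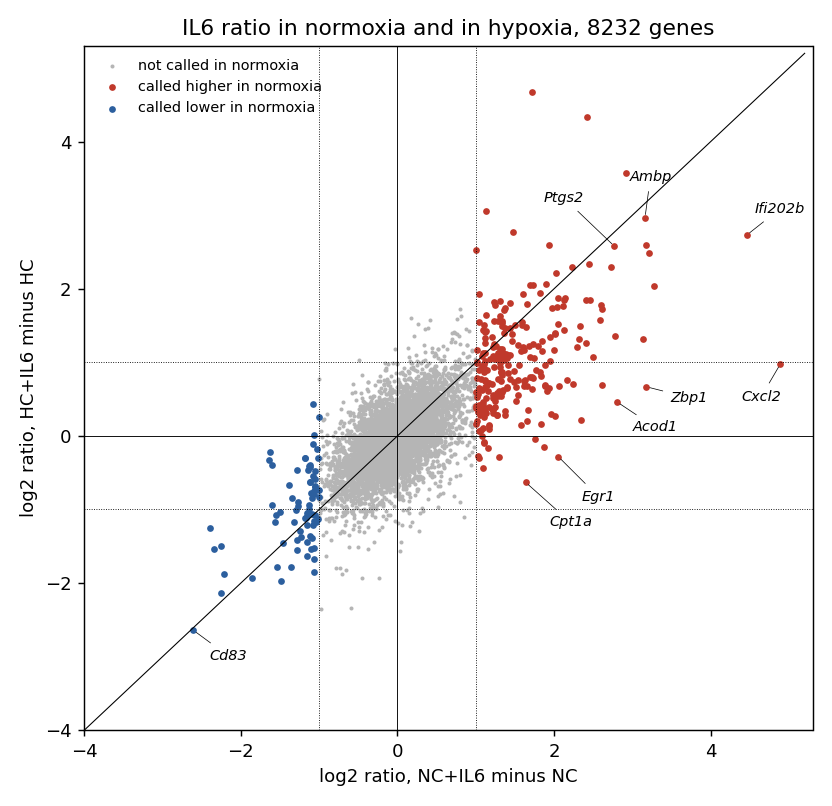
Log2 ratio of 8232 genes for NC+IL6 minus NC (horizontal axis) and HC+IL6 minus HC (vertical axis), 1 point per gene, each from 1 pair of arrays. Red and blue genes were called in normoxia, dotted lines mark 2-fold and the diagonal marks equal ratios. Of the 243 red genes 115 lie above the upper dotted line, and of the 75 blue genes 39 lie below the lower one.

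Some leading genes had close values in both pairs. Cd83 had a log2 ratio of -2.61 in normoxia and -2.64 in hypoxia, Ambp 3.16 and 2.96, Ptgs2 2.77 and 2.58, Cd33 at most -2.25 and -2.13. Others were far apart. Cxcl2 had at least 4.89 in normoxia and 0.98 in hypoxia, where its log2 signals were 9.28 in HC and 10.26 in HC+IL6. Cxcl10 had 2.34 and 0.22, with 8.01 in HC and 8.23 in HC+IL6, and Acod1 at least 2.80 and 0.46. Ccr1 had at least 2.41 in normoxia and 4.34 in hypoxia, but the first value is a lower bound. Without the floor its normoxia log2 ratio was 4.14, so no difference is read for it. Interferon-stimulated genes had a median of 0.70 over the 44 with a value in hypoxia, with 15 called higher, and the ATF4 list 0.39 over 29, with 5 called. In HC minus NC, which shares the NC array, these lists had medians of -0.59 over 42 genes and -0.44 over 30. Genes under 7.5 on both arrays of a pair have no value, so these medians cover fewer genes than the 53 and 32 in normoxia. The floor also makes some values lower bounds, such as Zbp1 in hypoxia at 0.67, with 3.01 in HC and 8.17 in HC+IL6. The medians are therefore not set against those in normoxia. The mitosis list had -0.49 in hypoxia, beside -0.47 in normoxia. These differences between pairs of single arrays were not tested.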

How the data were processed

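RNA of RAW264.7 macrophages from 4 conditions was hybridised by the authors to 4 Affymetrix mouse arrays, 1 per condition, so that no group has a replicate. The deposited values are log2 signals of the MAS5 algorithm (version not given in the sources used here), which the authors scaled per array. The 2% trimmed mean of the signals was 499.8 on each of the 4 arrays, and depth does not apply to arrays. From these values the log2 ratio NC+IL6 minus NC was computed for probe sets with a log2 signal of 7.5 or more on at least 1 of the arrays, after raising a dimmer signal to 7.5 (a signal of 181). A 2-fold difference was called, and no test was made. A gene stands for its brightest member probe set.

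Of 45101 probe sets, 34958 had 1 gene symbol in the platform annotation, 932 had several and 9211 were not listed and are unnamed here. Gene numbers of 34754 matched RefSeq. The members and the 59 gene lists were chosen with earlier results of these data known. The genes named are the 20 highest and the 20 lowest, up to 5 of each list with the largest ratios, the genes the study names, and further genes chosen after their values were seen. Promoter sequences (GRCm38.p6) are from RefSeq. The ATF4 and NF-kB letters were added after values were seen. Alternatives changed the normalization, the floor, the threshold, the choice of probe sets and the member rule. Calculations used Python 3.11.15, numpy 2.4.6, pandas 2.3.3 and, for quantile and cyclic loess normalization, limma 3.58.1 in R 4.3.3. The call rule was run on simulated data in which only bright probe sets were shifted, by more than 2-fold. That does not bear on dim genes, on calls near 2-fold or on how cultures vary.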

Additional observations from a re-analysis of the deposited data

Results flagged for a closer look

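Some genes that were called with IL6 in normoxia had the other sign with IL6 in hypoxia. With 1 array per condition the difference between the pairs was not tested. Egr1, an early response transcription factor, had a log2 ratio of 2.05 in normoxia and -0.28 in hypoxia, with log2 signals of 10.37 in NC and 12.42 in NC+IL6 and of 12.997 in HC and 12.72 in HC+IL6. Ddit4, an inhibitor of mTORC1, had 1.76 and -0.039, and Nfkbie, an inhibitor of NF-kB, 1.09 and -0.43. For these 3 genes the HC signal was above the NC signal, by log2 ratios of 2.62, 1.64 and 1.35 in HC minus NC. It was also above NC for the genes named next, by 0.28 for Ifit2, 2.14 for Cpt1a, 0.33 for Ifi27 and 0.11 for Deptor. Ifit2, an antiviral protein, had 1.88 and -0.15. Cpt1a, which brings fatty acids into mitochondria, had 1.64 and -0.63 on an x_at probe set, and its other member probe sets had -0.05 and 0.00 in normoxia, so its call rests on 1 probe set. Of the genes called lower in normoxia, Ifi27, a small interferon-inducible protein, had -1.08 and 0.43, and Deptor, a partner of mTOR, had -1.06 and 0.0082.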

How the results depend on the processing

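No value reversed among the list medians and the counts of calls. For the 320 named genes, 268 of 3481 values in the alternatives were counted as moved and 1 as reversed, so some single folds depend on the processing. The number of genes called higher ran from 175 (threshold and floor at 8.5) to 343 (no floor), and of those called lower from 47 to 110, beside 253 and 75. The share of higher genes among calls ran from 75.5% to 81.3%. Quantile normalization kept 239 of the 253 higher and 68 of the 75 lower genes. Probe sets called lower numbered 244 without the floor, 228 with quantile normalization and no floor, and 77 at 8.5, beside 132.

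Medians that moved by more than the SD between probe sets of a gene belonged to short lists. Chemoattractant receptors had 0.35 after quantile normalization, 0.39 after cyclic loess, 1.40 without the floor, 0.65 at 8.5, 0.62 with the mean of a gene's probe sets and 1.65 with members chosen by the mean of both arrays. Chemokines had 1.36 without the floor, 1.56 with quantile normalization as well, and 0.73 at 8.5. M2 genes had 1.32, 1.15 and, with a signal of 100 added, 0.82. Osteoclast genes had -0.30 at 8.5. Lists of other cell types rest on 1 gene each. That of T and NK cells had 1.80 without the floor, 1.79 with quantile normalization as well and 1.06 with 100 added. That of fibroblasts had 1.54, 1.53 and 0.88, and 0.83 at 7.0. That of endothelium had 0.36 without the floor and at 7.0, and 0.35 with quantile normalization and no floor. That of B cells had -1.32 without x_at and s_at probe sets. The single gene that reversed was Cpt1a, at -0.047 without x_at and s_at probe sets, which leaves its other probe sets. The cause of the other shifts was not tested.

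Members by the mean and quantile normalization without a floor were chosen after seeing the data. No paired analysis was possible because each condition has 1 array, and leaving out an array would leave nothing to compare. Among the 30165 probe sets under 7.5 on both arrays 44.4% differed by 2-fold, so dim genes were not read.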
